A study of Homo sapiens with 7 samples.

Results

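G0S2 and 9 other genes of lipid droplet storage and lipolysis were followed through dasatinib resistance in K562 cells, as 10 of the 25702 genes in the deposited count table. The 10 genes were picked by name, and they were G0S2, HILPDA, PNPLA2, ABHD5, LIPE, MGLL, PLIN2, PLIN3, DGAT1 and DGAT2. G0S2 headed the list because its counts against the controls were far lower in the resistant lines, so its values against the controls are given as a description with no test. The other 9 genes were picked by function.

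K562, an established line from chronic myeloid leukemia, is driven by the BCR::ABL1 fusion kinase, and dasatinib is a kinase inhibitor directed at it. RNA was sequenced from a drug naive line, a line kept in the DMSO vehicle, and dasatinib resistant (DasR) lines at 10, 15, 25, 50 and 200 nM dasatinib, with 1 library per line. The drug naive and DMSO lines formed the control group, the 10, 15 and 25 nM lines the early stage group and the 50 and 200 nM lines the late stage group. All DasR lines came from a single stepwise escalation of dose, so that later lines descend from earlier ones, and the study drew the stages from a clustering of the same libraries. Lines therefore stand in for replicates, dose varies within each DasR group, and no line has a repeat library. Total counts per library ranged from 20059656 (25 nM) to 27844799 (15 nM), with 21007761 and 24037893 for drug naive and DMSO cells. The labels call the cells erythroblasts, and all 11 erythroid markers examined, among them GATA1 and the fetal globins, reached 10 CPM (counts scaled to a common library total) in at least 2 libraries.

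Cells store fatty acids as triglyceride in lipid droplets and release them by lipolysis, in which PNPLA2 (adipose triglyceride lipase) removes the first fatty acid, LIPE (hormone-sensitive lipase) acts mainly on the resulting diglyceride and MGLL on monoglyceride. ABHD5 is the coactivator of PNPLA2, while G0S2 and HILPDA are small proteins that bind PNPLA2 and inhibit it. PLIN2 and PLIN3 coat droplets outside fat tissue, and DGAT1 and DGAT2 catalyze the last step of triglyceride synthesis. G0S2 was first described as a gene switched on when resting blood cells re-enter the cell cycle, and its protein has also been found to bind BCL2.

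G0S2 (gene ID 50486) lies on the plus strand of hg19 chromosome 1 from 209848757 to 209849735, in 2 exons that hold 876 bases. The gene sits inside the span of HSD11B1-AS1, an antisense long noncoding RNA on the minus strand from 209834701 to 209897470. No exon of that RNA overlaps G0S2, although its exon from 209848567 to 209848628 lies in the window before the G0S2 start. The 250 bases before the start of G0S2 and of PLIN2 are shown from RefSeq (GRCh38.p14). Each is read 5′ to 3′ on the strand of its gene. Of the 10 genes, 7 were at 10 CPM, and among these 7 this pair had the largest fitted differences between controls and DasR lines. The PLIN2 window precedes the RefSeq start and lies inside the longer span that the hg19 annotation gives this gene. Each matched hg19 exactly once, at chr1:209848507-209848756 on the plus strand for G0S2 and at chr9:19127491-19127740 on the minus strand for PLIN2. Capitals mark matches to the motifs searched on both strands, which were TATAA (the TATA box core), AGGTCA (the core site of nuclear receptors), ACGTG (the hypoxia-inducible factor core), CACGTG (an E-box, which contains the ACGTG core), AGATAA (the GATA site) and GGGCGG (a GC box).
G0S2: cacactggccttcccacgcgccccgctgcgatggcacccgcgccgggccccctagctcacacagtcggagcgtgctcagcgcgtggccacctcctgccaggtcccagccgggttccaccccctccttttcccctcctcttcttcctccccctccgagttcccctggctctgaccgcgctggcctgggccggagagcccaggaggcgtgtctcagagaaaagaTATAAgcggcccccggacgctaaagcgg
PLIN2: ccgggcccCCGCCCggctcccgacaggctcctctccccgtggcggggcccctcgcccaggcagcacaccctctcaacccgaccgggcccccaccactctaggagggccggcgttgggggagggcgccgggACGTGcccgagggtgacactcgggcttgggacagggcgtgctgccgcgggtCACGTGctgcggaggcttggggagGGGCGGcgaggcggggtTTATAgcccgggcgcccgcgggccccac
The G0S2 window held TATAA at position -28 from the start and none of the other motifs. The PLIN2 window held TATAA on the opposite strand at the same position, GGGCGG at -45 and, reversed, at -242, and ACGTG at -120 and within a CACGTG at -69. Of 34943 promoter windows before RefSeq gene starts, 19.0% held TATAA, 12.1% AGGTCA, 18.5% ACGTG, 6.32% CACGTG, 9.19% AGATAA and 42.5% GGGCGG. The windows were 69.2% G and C with 21 CpG for G0S2 and 78.0% with 28 CpG for PLIN2, where the median window held 11 CpG and 30.2% and 15.8% of windows held at least as many. These matches are letters in a window and were not tested as binding sites.

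G0S2 was at 60.3 CPM or more in both control lines and at 2.50 CPM or less in every DasR line. Drug naive cells held 1317 counts and DMSO cells 1450, and the 10, 15, 25, 50 and 200 nM lines held 21, 14, 7, 12 and 54. On the CPM scale the controls were at 62.7 and 60.3, the early stage lines at 0.755, 0.503 and 0.349, and the late stage lines at 0.576 and 2.50. The highest DasR line was the 200 nM line, and the groups of DasR and control lines did not overlap.

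The controls averaged 61.5 ± 1.68 CPM (SD, n = 2) of G0S2, the early stage lines 0.536 ± 0.205 CPM (SD, n = 3) and the late stage lines 1.54 ± 1.36 CPM (SD, n = 2). The control mean was 81.4-fold above the 10 nM line, 122-fold above the 15 nM line and 176-fold above the 25 nM line. It was 107-fold above the 50 nM line and 24.6-fold above the 200 nM line. Exact Poisson 95% intervals of the counts ran from 57.3 to 63.5 CPM in the DMSO line and from 1.88 to 3.26 CPM in the 200 nM line, the nearest lines of either side. In these bulk libraries, fewer cells with the transcript and less transcript per cell cannot be told apart.

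Among the DasR lines, G0S2 was highest at 200 nM, and only this line was separated from the rest by its counting interval. The Poisson intervals were 0.467 to 1.15 CPM (10 nM), 0.275 to 0.844 CPM (15 nM), 0.140 to 0.719 CPM (25 nM) and 0.298 to 1.01 CPM (50 nM). These 4 intervals overlapped one another, and the intervals of the drug naive line (59.4 to 66.2 CPM) and the DMSO line overlapped as well. The 200 nM line was 4.34-fold above the 50 nM line, a ratio that 0.354% of the 10452 genes tested reached. This ratio rests on 54 and 12 counts, so its counting error is larger than that of genes at 10 CPM in both lines. Genes entered the test on reaching 10 CPM in 2 or more libraries, and G0S2 met this only through the controls. Between late and early stage lines, the log2 fold change of G0S2 was 1.48 (standard error 0.57) at a false discovery rate (FDR) of 0.123, from the quasi-likelihood test of edgeR, adjusted over all 10452 genes by Benjamini and Hochberg. This did not pass the FDR of 0.005 that the study used or a looser FDR of 0.05. With 1 library left out at a time, the log2 fold change ranged from 0.07 (without the 200 nM line) to 2.16.

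**Figure D1:**
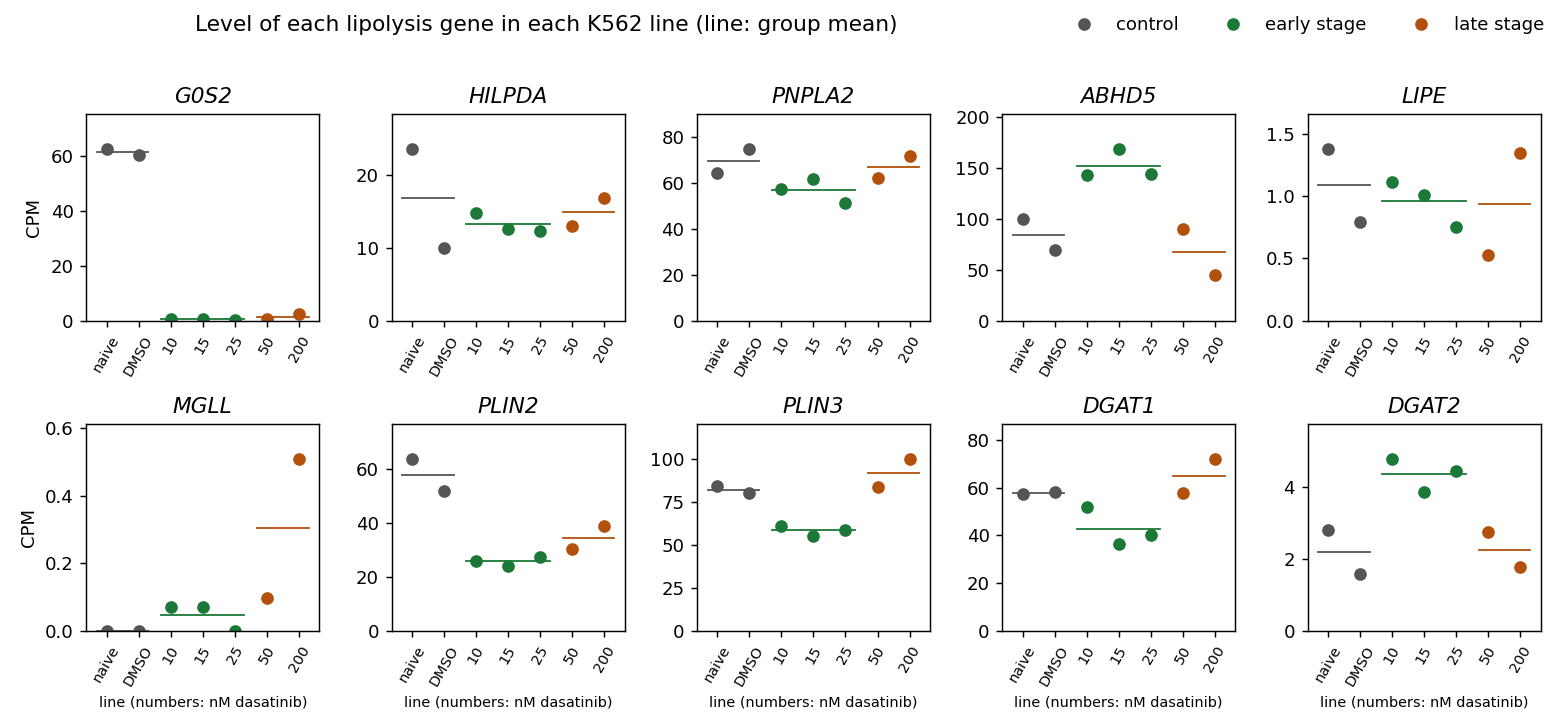
CPM of the 10 genes in each of the 7 K562 lines, in 1 panel per gene with a vertical axis that starts at 0. Points are single libraries colored by group and short lines are group means. G0S2 is at 2.50 CPM or less in all 5 DasR lines, PLIN2 is lower in all 5, and ABHD5 is highest in the 10, 15 and 25 nM lines.

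The other inhibitor of PNPLA2, HILPDA (gene ID 29923, chromosome 7 from 128095903 to 128098472), did not follow G0S2. HILPDA stood at 23.7 CPM in drug naive and 10.0 CPM in DMSO cells, 14.9, 12.6 and 12.4 CPM in the early stage lines, and 13.0 and 16.9 CPM in the late stage lines. The controls bracketed all DasR lines. HILPDA differed from the controls by -0.37 on the log2 scale (standard error 0.34, FDR 0.411) in the early stage and -0.20 (standard error 0.38, FDR 0.703) in the late stage by the same edgeR test, and neither passed. Both signs depended on the drug naive line, without which the values were 0.42 and 0.58. At the other end of leaving out 1 library, the values were -0.88 in the early and -0.72 in the late stage.

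HILPDA is known as a hypoxia target, and the spread between its controls was shared by other genes of that kind. All 12 hypoxia target genes examined, HILPDA included, were higher in the drug naive than in the DMSO line, against 38.3% of the genes tested. The drug naive line had 2.36-fold more HILPDA, a ratio reached by 0.440% of the genes tested, and 823 CPM of VEGFA, which encodes an angiogenic growth factor, against 549 CPM in DMSO cells. These are single libraries, and the cause of the difference was not tested.

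The target of both inhibitors, PNPLA2 (gene ID 57104, chromosome 11 from 818914 to 825573), differed much less than G0S2. PNPLA2 had 64.4 and 75.2 CPM in the drug naive and DMSO lines, 57.6, 62.0 and 51.2 CPM in the early stage lines, and 62.4 and 71.8 CPM in the late stage lines. All 3 early stage lines lay below both controls, by a small margin at 15 nM, and the late stage lines overlapped the controls. The log2 fold change was -0.31 (standard error 0.11, FDR 0.0613) in the early and -0.08 (standard error 0.13, FDR 0.661) in the late stage, and neither passed an FDR of 0.05. BCL2, the other reported partner of the G0S2 protein, had 3.86 and 4.12 CPM in controls, 3.60, 7.11 and 5.43 CPM in early stage lines, and 3.12 and 6.35 CPM in the late stage lines. Among 14899 genes that reached 1 CPM in 2 or more libraries, BCL2 had log2 fold changes of 0.42 (FDR 0.404) and 0.26 (FDR 0.662) and did not pass.

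Levels of different genes were compared as RPKM, that is CPM per kilobase of exon in the annotation. In the controls G0S2 had the highest level of the 10 genes, at 70.2 ± 1.91 RPKM (SD, n = 2), above PLIN3 at 30.0 ± 1.04, PNPLA2 at 18.2 ± 1.99 and DGAT1 at 14.0 ± 0.157 RPKM. In the early stage lines G0S2 was at 0.611 ± 0.234 RPKM (SD, n = 3), near DGAT2 at 0.551 ± 0.0601 RPKM, while PLIN3 at 21.3 ± 1.06 and ABHD5 at 20.1 ± 1.98 RPKM stood highest. The order below G0S2 depended on the length used. With the longest transcript the controls had 30.6 ± 4.47 RPKM of PLIN2, where the exon length gave 11.6 ± 1.69, above PNPLA2 at 25.6 ± 2.79, and in the early stage lines ABHD5 at 28.6 ± 2.82 passed PLIN3 at 26.1 ± 1.31 RPKM. The ratio of the G0S2 level to the PNPLA2 level was 4.26 in the drug naive and 3.51 in the DMSO line. It was 0.0573, 0.0355 and 0.0298 in the 10, 15 and 25 nM lines, and 0.0404 and 0.152 in the 50 and 200 nM lines. Transcripts of the inhibitor thus outnumbered those of the lipase in both controls and were fewer than those of the lipase in every DasR line. The length also moved this ratio, whose control mean of 3.88 became 2.76 with the longest transcript and 2.24 with the gene length the authors deposited.

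ABHD5 (gene ID 51099, chromosome 3 from 43731600 to 43775863), the coactivator of PNPLA2, was highest in the early stage lines. ABHD5 had 99.6 and 69.3 CPM in the drug naive and DMSO lines, 142, 169 and 143 CPM in the 10, 15 and 25 nM lines, and 89.9 and 44.7 CPM in the late stage lines. The early stage lines lay above both controls and above both late stage lines, and the late stage lines overlapped the controls. Against the controls the log2 fold change was 0.82 (standard error 0.30, FDR 0.0579) in the early stage and -0.35 (standard error 0.32, FDR 0.432) in the late stage, and neither passed. With no filter the early stage value was 0.84 (FDR 0.0301), past 0.05 but not past 0.005. Between late and early stage lines the log2 fold change among genes at 10 CPM was -1.17 (standard error 0.31). Its FDR was 0.0485 in the same edgeR test, which passed 0.05 but not 0.005. This call was lost when any line other than the 50 nM line was left out, with an FDR of up to 0.165 (without 200 nM, at -0.75), and without the 50 nM line the value was -1.78 (FDR 0.0084). At 0.05, 6.10% of the genes tested were lower in the late stage lines.

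The summed level of the erythroid markers was also highest in the early stage lines. The 11 markers summed to 3846 and 3442 CPM in the drug naive and DMSO lines, 11772, 13343 and 10282 CPM in the early stage lines, and 6545 and 4692 CPM in the late stage lines. HBG2, a fetal globin, was the most abundant of them, no marker was at 0, and 5 of 11 passed an FDR of 0.005 as higher in the early stage lines, where 7.92% of genes tested did. TFRC, the transferrin receptor, rose in both stages with log2 fold changes of 1.13 (FDR 0.0007) and 0.85 (FDR 0.0037). GATA1, the erythroid transcription factor, ran the other way, at 201 and 217 CPM in controls, 165, 206 and 191 CPM in early stage lines, and 235 and 295 CPM in the late stage lines, and was the 1 marker of 11 with a log2 fold change below 0 in the early stage (-0.18, FDR 0.283). In the late stage lines the sum stood above both controls, while ABHD5 overlapped them. The part of these markers in the levels of ABHD5 was not tested.

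LIPE and MGLL, the lipases of the later steps among the 10 genes, had few counts in every library. LIPE (gene ID 3991, chromosome 19 from 42905666 to 42931540) had between 0.528 CPM, at 50 nM, and 1.38 CPM, in the drug naive line, with 11 to 31 counts per library. Its log2 fold changes among the 14899 genes at 1 CPM were -0.18 (FDR 0.789) in the early and -0.19 (FDR 0.809) in the late stage lines. MGLL (gene ID 11343, chromosome 3 from 127407905 to 127771033) had 0 counts in both controls and at 25 nM, 2 counts in each of the 10, 15 and 50 nM lines and 11 in the 200 nM line. A count of 0 allowed up to 0.143 CPM in the drug naive and 0.125 CPM in the DMSO line (a limit of 3 counts, which is lower than the upper ends of the two-sided Poisson intervals, at 0.176 and 0.153 CPM), and only the 200 nM line, at 0.510 CPM, stood above this limit. No fold change is given for MGLL, and such intervals and floors cover counting error only.

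PLIN2 (gene ID 123, chromosome 9 from 19108373 to 19149288), which coats droplets and is a target of the PPAR nuclear receptors, fell in the early stage lines. PLIN2 stood at 64.0 CPM in drug naive and 52.0 CPM in DMSO cells, 25.8, 24.2 and 27.5 CPM in the 10, 15 and 25 nM lines, and 30.2 and 39.0 CPM in the 50 and 200 nM lines. All 5 DasR lines were below both controls, and both late stage lines were above all early stage lines. The early stage value was -1.19 on the log2 scale (standard error 0.15, adjusted p of 0.0012 in edgeR). In the late stage lines it was -0.77 (standard error 0.17, FDR 0.0130), past 0.05, as 17.6% of genes tested were in this direction, but not past 0.005. Without the drug naive line the late stage value was -0.58 (FDR 0.0780). PLIN2 was the only one of the 6 other genes tested that passed 0.005 in the early stage, where 18.0% of genes tested passed and 10.1% were lower. The early stage FDR rose to 0.0122 without the drug naive line, to 0.0058 without the 25 nM line and to 0.0079 with all 5 DasR lines as 1 group.

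PLIN3 (gene ID 10226, chromosome 19 from 4838353 to 4867706), the second droplet coat protein, had its lowest levels in the early stage lines. PLIN3 had 84.2 and 80.1 CPM in controls, 61.2, 55.4 and 58.4 CPM in early stage lines, and 83.5 and 100.1 CPM in the late stage lines. The early stage lines did not overlap the controls or the late stage lines. Against the controls the log2 fold change was -0.51 (standard error 0.10, FDR 0.0070) in the early and 0.14 (standard error 0.11, FDR 0.383) in the late stage. From early to late stage it was 0.65 (standard error 0.10, FDR 0.0179), so that the difference between stages passed 0.05, as 6.60% of genes tested did in this direction. The early stage FDR was 0.0530 without the drug naive line and 0.522 with all 5 DasR lines as 1 group, and the FDR between stages was 0.0504 without the 25 nM and 0.0939 without the 200 nM line.

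DGAT1 (gene ID 8694, chromosome 8 from 145538247 to 145550573), which makes triglyceride in the endoplasmic reticulum, had the same order of groups as PLIN3, with a wider spread in the early stage lines. DGAT1 had 57.4 and 58.3 CPM in controls, 51.7, 36.4 and 40.0 CPM in early stage lines, and 57.8 and 72.1 CPM in the late stage lines. Its log2 fold changes of -0.45 (standard error 0.17, FDR 0.0581) in the early stage, 0.14 (standard error 0.18, FDR 0.570) in the late stage, and 0.60 (standard error 0.17, FDR 0.0558) from early to late stage did not pass 0.05. DGAT2 (gene ID 84649, chromosome 11 from 75470557 to 75512580), the unrelated enzyme for the same step, was far less abundant and ran the other way. DGAT2 had 2.81 and 1.58 CPM in controls, 4.78, 3.84 and 4.44 CPM in early stage lines, and 2.74 and 1.76 CPM in the late stage lines. Among genes at 1 CPM its log2 fold changes were 0.98 (FDR 0.0539) in the early and 0.05 (FDR 0.936) in the late stage lines, and neither passed.

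Of the whole set, 7 of the 10 genes met the filter of 10 CPM, and LIPE, MGLL and DGAT2 did not. Of the 6 that were tested besides G0S2, in the early stage 1 passed an FDR of 0.005 (PLIN2, lower) and 1 more passed 0.05 (PLIN3, lower), where 46.5% of genes tested passed 0.05 in either direction and 24.0% as lower. In the late stage 0 of the 6 passed 0.005, against 7.98% of genes tested, and PLIN2 passed 0.05, against 33.9%. From early to late stage none of the 6 passed 0.005, as for all 10452 genes, where the same test called 0 with a smallest FDR of 0.0167. In that comparison 3450 genes had an unadjusted p under 0.05, DESeq2 called 1135 genes at 0.005, and ABHD5 and PLIN3 passed 0.05 where 12.7% of genes tested did. Groups that do not overlap were common in these data. Early stage and control lines were separated for 5 of the 6 genes and 69.8% of genes tested, late stage and control lines for 1 of the 6 (PLIN2) and 67.7%, and late and early stage lines for 5 of the 6 and 53.3%. The median log2 fold change of the 6 was -0.41 in the early stage, -0.14 in the late stage and 0.32 from early to late stage, where that of all genes tested was 0.0031, -0.0036 and -0.0053.

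**Figure D2:**
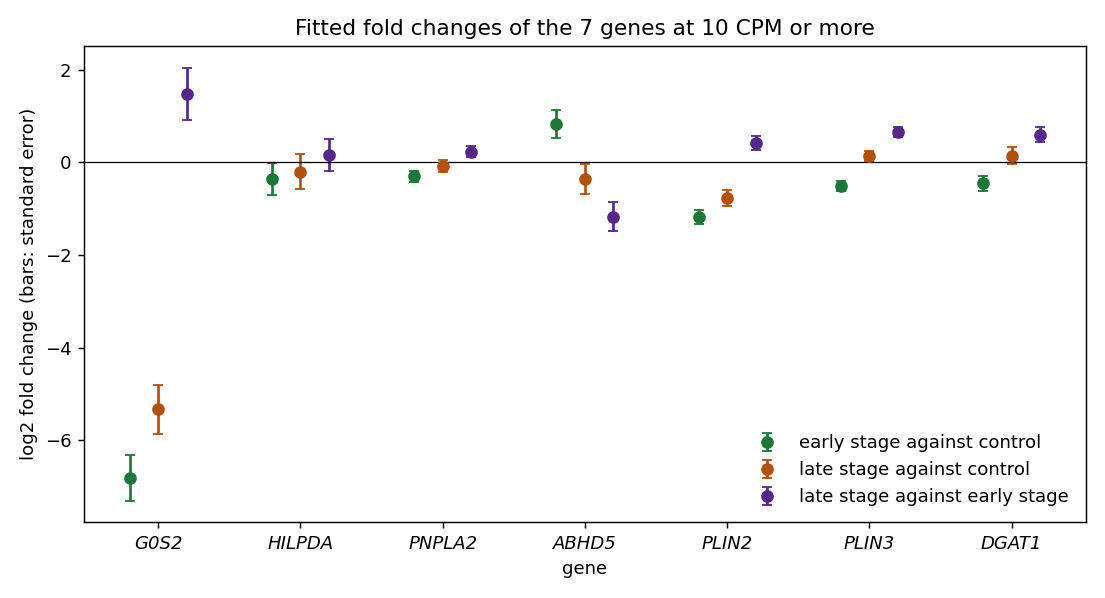
Log2 fold changes with standard errors of the 7 genes at 10 CPM, for early stage against control, late stage against control and late against early stage lines. G0S2 lies at -6.81 and -5.33 against the controls, and PLIN2 at -1.19 and -0.77 is next.

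On this scale, the fitted log2 fold change of G0S2 was -6.81 (standard error 0.49) in the early and -5.33 (standard error 0.53) in the late stage lines, given as a description because the gene was chosen on these values. Comparisons of both stages share the same 2 control libraries.

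Genes beside G0S2 were examined because position was not used to choose it. Within 500 kb of G0S2 the annotation held 21 other genes of all kinds, of which 10 had a row of counts, 5 were under 1 CPM in every library and 2 of those were at 0 throughout. A single neighbor, LAMB3, which encodes a laminin chain of basement membranes, shared the pattern of G0S2. LAMB3 (gene ID 3914, minus strand, from 209788215 to 209825770) lies 23.0 kb from G0S2 and had 222 and 197 counts in the drug naive and DMSO lines, 12, 14 and 9 in the early stage lines, and 7 and 1 in the late stage lines. On the CPM scale the controls were at 10.6 and 8.20, the early stage lines at 0.432, 0.503 and 0.449, and the late stage lines at 0.336 and 0.0463. All DasR lines were below both controls, and unlike G0S2, LAMB3 was lowest at 200 nM.

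LAMB3 missed the filter of 10 CPM by 1 library, and it reached 1 CPM only in the controls, so that its entry among genes at 1 CPM already required higher controls. Among the 14899 genes at 1 CPM, it differed from the controls on the log2 scale by -4.34 (standard error 0.43, FDR 0.0006) in the early and -5.58 (standard error 0.57, FDR 0.0014) in the late stage in the fit by edgeR to those genes. At that filter 7.89% and 3.05% of genes were past an FDR of 0.005 as lower. With no filter, where entry does not depend on the controls, the values were -4.33 (FDR 5.32e-05) and -5.56 (FDR 0.000148). The early stage FDR was 0.0083 without the drug naive line, and the late stage FDR was 0.0138 without the drug naive and 0.0076 without the DMSO line.

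The other neighbors did not share this pattern as a block. HSD11B1, 9.79 kb on the other side of G0S2, encodes a steroid dehydrogenase and had 5 and 3 counts in the controls and 0 in every DasR line, too few for a fold change. CAMK1G had 1 count in 1 library, and the microRNA gene MIR4260 had none. TRAF3IP3, at 79.6 kb, had 2.27 to 3.62 CPM across all 7 lines, and its log2 fold changes of -0.14 (FDR 0.691) and -0.26 (FDR 0.518) did not pass. UTP25, a ribosome assembly factor at 152 kb, was the only neighbor at 10 CPM and rose in the early stage by 0.79 on the log2 scale (FDR 0.0018), and had 0.43 (FDR 0.0286) in the late stage lines. UTP25 no longer passed 0.005 in the early stage without the drug naive, DMSO, 15 nM or 25 nM line. Copy number of the region was not analysed here, and since the strand setting of the counting is not given in the sources used here, reads of G0S2 and unspliced reads of its antisense partner, whose exons lie outside G0S2, cannot be told apart.

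**Figure D3:**
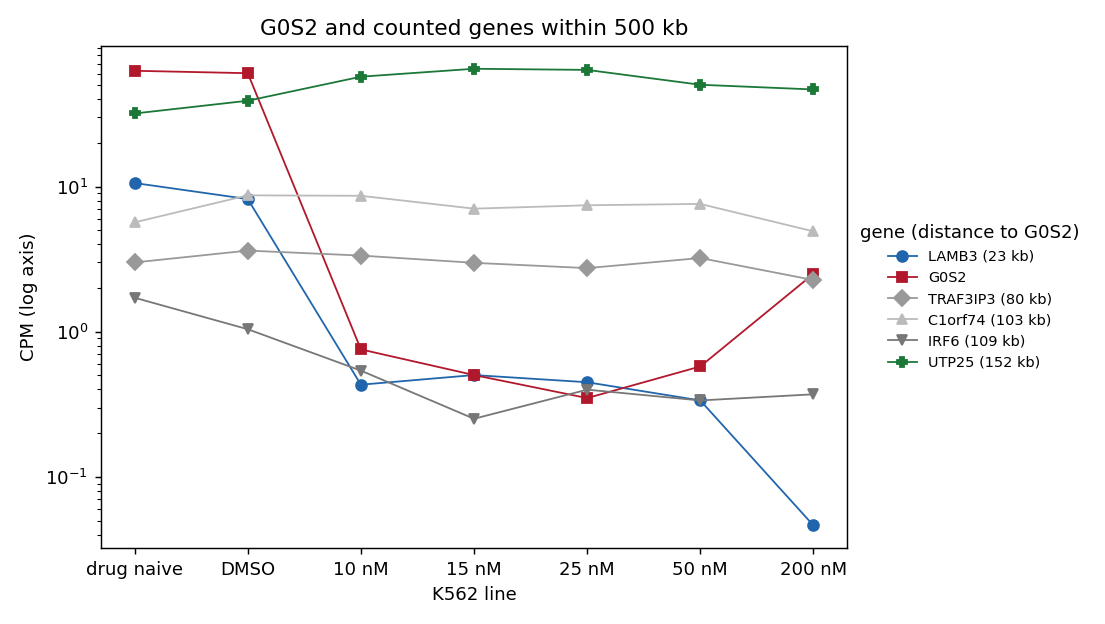
CPM on a log axis in each of the 7 lines for G0S2 and the 5 counted genes within 500 kb that reached 1 CPM in any library, with the distance of each to G0S2 in the legend. G0S2 and LAMB3 both step down between the DMSO and the 10 nM line, TRAF3IP3 stays between 2.27 and 3.62 CPM, and UTP25 is higher in the DasR lines.

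The genes most like G0S2 were ranked by the Pearson correlation of log2 CPM (prior count 2) over the 7 libraries, as a description with no test. The 6 highest were YIPF4 at 0.998, CCDC71L at 0.998, HDAC6 at 0.997, VPS35 at 0.997, MMUT at 0.996 and C18orf54 at 0.996. Their own differences were small next to that of G0S2, with HDAC6, a cytoplasmic deacetylase, at 176 and 170 CPM in the controls and 85.7 to 109 CPM in the DasR lines. High values were common, with 968 of 10451 genes above 0.9, and the 7 points share 1 cell line and fall into controls and DasR lines. Among the genes of lipolysis, PLIN2 had 0.955 (rank 368), PNPLA2 0.724, PLIN3 0.551, DGAT1 0.513, HILPDA 0.296 and ABHD5 -0.444.

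Genes of the steps around lipolysis were taken from lists drawn up by role. Apart from the 10 genes, 67 listed genes of lipid metabolism and its regulators were tested, of which 10 passed an FDR of 0.005 in the early stage, where 18.0% of all genes did, and 8 in the late stage, where 7.98% did. Of all genes, the early stage had 7.92% higher and 10.1% lower, and the late stage 3.42% higher and 4.56% lower. In glycerolipid synthesis, which feeds DGAT1 and DGAT2, 1 of 11 tested genes was lower and none higher in the early stage, and 2 were lower in the late stage. GPAT3, a glycerol phosphate acyltransferase, fell from 73.0 and 58.2 CPM in the controls to 31.8, 35.9 and 37.1 CPM in the early stage lines and 30.3 and 33.3 CPM in the late stage lines. Its log2 fold changes were -0.93 (FDR 0.0020) and -1.07 (FDR 0.0030). LPIN3, a phosphatidate phosphatase, had -0.70 (FDR 0.0063) in the early stage and fell in the late stage (FDR 0.0045), from 26.4 and 24.0 CPM in the controls to 11.4 and 14.2 CPM. The most abundant member, AGPAT1, was at 167 and 176 CPM in the controls and 218 to 251 CPM in the DasR lines, with log2 fold changes of 0.42 (FDR 0.0065) and 0.34 (FDR 0.0278). The median log2 fold change of the list was 0.30 in both stages.

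Of 16 genes of droplet coat and assembly, 8 were tested and 1 passed as lower in the early stage. This was HSD17B11, a droplet protein, at 119 and 110 CPM in the controls and 81.1, 77.4 and 77.3 CPM in the early stage lines (log2 fold change -0.56, FDR 0.0043). AUP1, the most abundant of the list, had -0.23 (FDR 0.263) and -0.14 (FDR 0.552). The coat gene of fat cells, PLIN1, had at most 1 count in any library, and the median of the list was -0.01 and 0.04 in the early and late stage. None of the 5 tested among 12 other neutral lipid hydrolases passed 0.005 in either stage, and DDHD2, the most abundant, had -0.07 (FDR 0.558) and -0.28 (FDR 0.0623). SOAT1, which esterifies cholesterol for storage, was the 1 gene of sterol ester synthesis that was tested, at 0.31 (FDR 0.146) and -0.05 (FDR 0.839).

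Fatty acid uptake and activation genes moved in both directions. Of 8 tested, 1 was lower in the early stage, and 1 was higher and 1 lower in the late stage. ACSL1, which activates long chain fatty acids, fell from 126 and 123 CPM in the controls to 46.0, 24.5 and 41.2 CPM in the early stage lines and had 79.9 and 69.8 CPM in the late stage lines. Its log2 fold changes were -1.76 (FDR 0.0017) and -0.76 (FDR 0.0640). SLC27A2, a fatty acid transport protein, was at 68.6 and 56.5 CPM in the controls and at 20.5 and 16.4 CPM in the late stage lines (log2 fold change -1.79, FDR 0.0013). DBI, the acyl-CoA binding protein, rose in the late stage by 0.83 on the log2 scale (FDR 0.0041). ACSL3, the most abundant, had -0.45 (FDR 0.0083) and -0.41 (FDR 0.0228). The list's median was -0.10 in the early and 0.53 in the late stage over these 8 genes, and both signs turned over the 15 genes of the list at 1 CPM, to 0.018 and -0.13.

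In mitochondrial fatty acid oxidation, which burns the acids that lipolysis frees, 3 of 17 tested genes were lower and none higher in each stage. In the early stage these were ECI1, an enoyl-CoA isomerase (-0.69, FDR 0.0022), ETFDH, which passes electrons to ubiquinone (-1.04, FDR 0.0022), and ACADVL, the very long chain dehydrogenase (-0.62, FDR 0.0027). In the late stage they were ECI1 again (-0.77, FDR 0.0036), CPT1A, which controls entry of fatty acids into mitochondria (-1.49, FDR 0.0026), and ACAA2, a thiolase (-1.44, FDR 0.0026). CPT1A stood at 56.0 and 60.8 CPM in controls, 46.7, 68.1 and 47.2 CPM in early stage lines and 19.2 and 23.0 CPM in the late stage lines, so that only the late stage lines lay outside the range of the others. HADHA, the most abundant, had -0.47 (FDR 0.0052) and -0.09 (FDR 0.481). In all, 15 of 17 genes had a log2 fold change below 0 in the early and 12 of 17 in the late stage, with medians of -0.35 and -0.26.

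Among 12 known or proposed regulators of G0S2 and droplet genes, 8 were tested, and in the early stage 1 was higher and 1 lower. RXRA, the partner receptor of the PPARs, rose from 33.7 and 31.7 CPM in the controls to 58.4, 66.6 and 58.1 CPM in the early stage lines (log2 fold change 0.89, FDR 0.0024). PPARD, a PPAR, fell from 67.2 and 56.3 CPM to 40.7, 35.7 and 39.2 CPM (-0.70, FDR 0.0038) and had 64.6 and 72.5 CPM in the late stage lines (0.13, FDR 0.491). PPARG, through which G0S2 is induced in fat cells, had at most 1 count in any library. SREBF1, the most abundant, had -0.18 (FDR 0.377) and 0.28 (FDR 0.242), and no regulator passed in the late stage, where the median was 0.20 against -0.07 in the early stage (0.065 over the 10 regulators at 1 CPM).

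Of 10 PPAR target genes, 6 were tested, and 2 were lower in the early stage (PLIN2 and ACADVL) and 1 in the late stage (CPT1A). TXNIP, the most abundant, had -0.37 (FDR 0.118) and -0.74 (FDR 0.0240), and the list's medians were -0.25 and -0.60. PDK4, a kinase that restrains pyruvate dehydrogenase, was under 10 CPM and is named after its values were seen, with 3 and 6 counts in the controls, 125, 143 and 49 in the early stage lines, and 3 and 0 in the late stage lines. It reached 1 CPM only in the early stage lines, and with no filter it rose in that stage (FDR 0.000613) and fell from early to late stage (FDR 0.00296), while the late stage FDR against the controls was 0.386. With the 2 PPAR targets added by the filter of 1 CPM, the list's medians were -0.11 and -0.62. Of 12 hypoxia target genes, 8 were tested, and VEGFA and SLC2A1 moved in opposite directions in the early stage. VEGFA fell from 823 and 549 CPM in the controls to 116, 76.4 and 104 CPM (-2.82, FDR 0.0003), and was also lower in the late stage, at 204 and 252 CPM (-1.62, FDR 0.00498). SLC2A1, the glucose transporter and the most abundant of the list, rose from 166 and 143 CPM to 449, 611 and 492 CPM (1.73, FDR 0.0012) and had 0.70 (FDR 0.0493) in the late stage. The list's medians were -0.77 and -0.83.

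**Figure D4:**
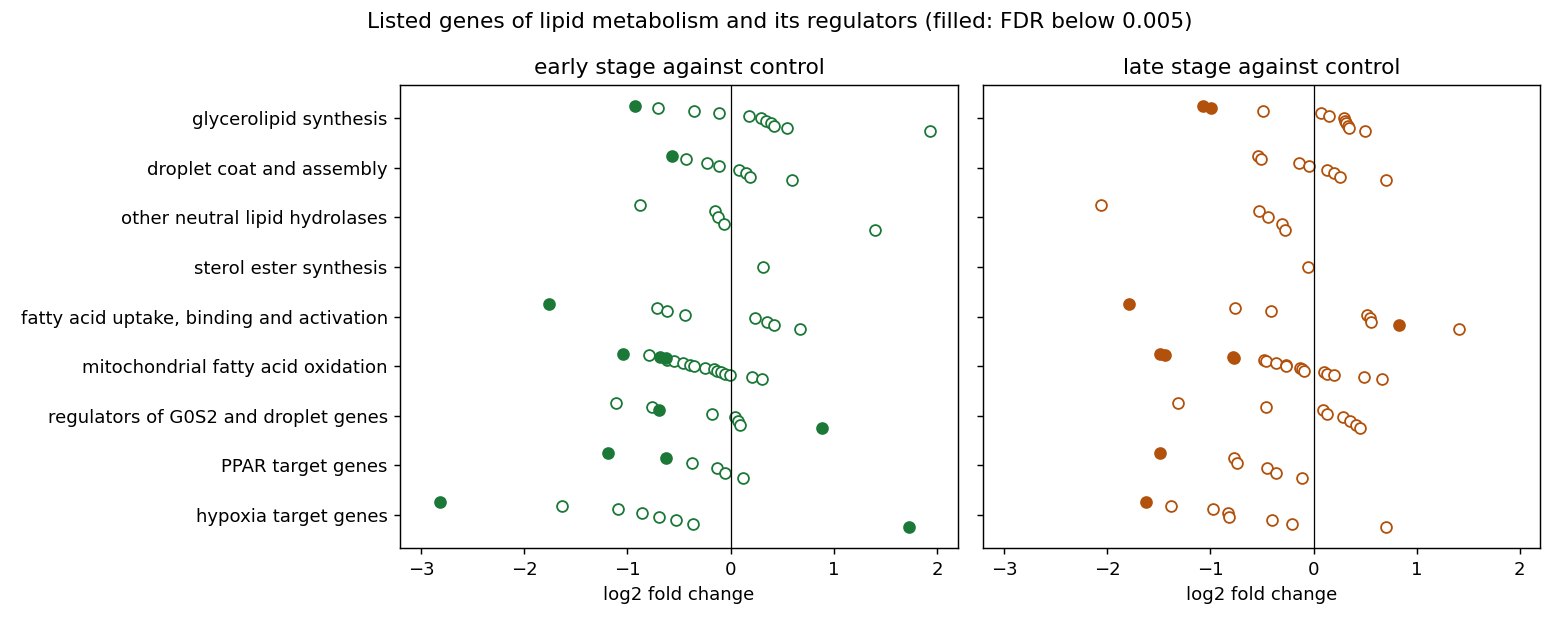
Log2 fold change of each tested gene in 9 lists of lipid metabolism, its regulators and targets, for early stage (left) and late stage (right) against control. Each point is a gene and filled points passed an FDR of 0.005, with most filled points to the left of 0.

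Many of these calls were lost when a library of the groups compared was left out. Of 15 named genes other than the 10 and the G0S2-like genes that passed in the early stage, 2 still passed without the drug naive line, 3 without the DMSO line, 8 without the 10 nM line, 7 without the 15 nM line and 3 without the 25 nM line. All 15 passed without the 50 or the 200 nM line, and all 15 kept their sign throughout. Of 9 that passed in the late stage, 0 passed without the drug naive, DMSO or 200 nM line, 2 without the 50 nM line, and 3, 5 and 1 without the 10, 15 and 25 nM lines, and all 9 kept their sign. In the fit of genes at 1 CPM, HSD17B11 in the early stage and VEGFA in the late stage no longer passed 0.005, the lower calls in the late stage went from 2 to 1 in glycerolipid synthesis and from 3 to 2 in oxidation, and those of uptake and activation went from 1 to 2 in the early stage.

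Markers of other cells that carry droplets or could differ in a leukemia line were read in the same libraries. None of 7 adipocyte markers reached 10 CPM in 2 libraries, FABP4 was at 0 in every library, and their sum was 5.09 and 5.82 CPM in controls, 1.58, 0.754 and 1.84 CPM in early stage lines, and 3.17 and 2.55 CPM in the late stage lines. LPL, the most abundant of them and a lipoprotein lipase, made up most of this sum, and among genes at 1 CPM it was lower in the early stage (-2.19, FDR 0.0037). Megakaryocyte markers summed to 69.9 and 59.8 CPM in controls, 16.3, 8.51 and 15.6 CPM in early stage lines, and 60.2 and 102 CPM in the late stage lines. They were almost all ITGA2B, the platelet integrin, which fell in the early stage (-2.44, FDR 0.0023) and had 0.40 (FDR 0.465) in the late stage. GP1BA, the other megakaryocyte marker at 1 CPM, had -1.32 (FDR 0.0038) in the early and -1.07 (FDR 0.0192) in the late stage among genes at 1 CPM. Monocyte and granulocyte markers, led by LYZ, summed to 68.1 and 47.5 CPM in the controls and 27.8 to 109 CPM in the DasR lines. LYZ had log2 fold changes of 0.23 in the early and 0.99 in the late stage, and neither passed 0.05. ITGAM, the other of these markers at 1 CPM, ran the other way among genes at 1 CPM. It had -1.73 (FDR 0.0726) in the early and -3.18 (FDR 0.0274) in the late stage. Fibroblast markers, led over all libraries by COL1A1, summed to 5.05 CPM in drug naive and 19.6 CPM in DMSO cells and to between 5.05 and 11.2 CPM in the DasR lines. COL1A2, a collagen chain named after its values were seen, made up most of the DMSO sum, at 14.3 CPM against 2.00 CPM in drug naive cells and 0.432 CPM or less in every DasR line. It reached 1 CPM only in the controls, and with no filter it was lower in the early stage (-5.26, FDR 0.000968) and had -4.67 (FDR 0.00687) in the late stage. Of the 3 fibroblast markers at 1 CPM, the other 2 ran the other way in both stages. With no filter COL1A1 had 1.04 (FDR 0.0962) in the early and 0.75 (FDR 0.305) in the late stage. DCN had 1.74 (FDR 0.0278) and 0.69 (FDR 0.478). The order of the PLIN3 and DGAT1 groups resembled that of ITGA2B but not that of GP1BA, and the part of these markers in those levels was not tested.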

How the data were processed

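RNA of 7 K562 lines was sequenced with 1 library each, from total RNA depleted of ribosomal RNA, with paired 75 bp reads. STAR was the aligner, to hg19, and the authors deposited raw, whole-number counts for 25702 gene IDs. The submitters' processing notes also name FastQC, featureCounts and edgeR, and the versions of STAR and featureCounts are not given in the sources used here. The authors also deposited tables of their own comparisons (fold changes on a log2 scale, average abundance and their p-values), of which only gene symbols, chromosomes and gene lengths were used. All columns of per-sample values were used.

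Genes reaching 10 CPM in 2 or more libraries were tested in edgeR 4.0.16 on R 4.3.3, with TMM scaling and the functions glmQLFit and glmQLFTest. The model had a coefficient for each group and took all 7 libraries, p-values were adjusted by Benjamini-Hochberg over all genes tested, and the study's FDR of 0.005 was the threshold. The common dispersion was 0.0260. DESeq2 1.42.0, limma 3.58.1 (voom), other scalings, filters and thresholds, and leaving out each library were alternatives. The fits were tested on simulated counts. Lines of a group differed by more than sampling noise (chi-square per degree of freedom 15.5 to 48.3). The p-values set group differences against the spread between these lines, which includes differences of dose. Floors are 3 counts per library. Positions and exon lengths came from GENCODE on GRCh37, the build of hg19, and all 88 listed or neighboring genes with a deposited chromosome lay on it. Promoter windows came from RefSeq, which gave rows for G0S2, PNPLA2, ABHD5, PLIN2, PLIN3 and LIPE.

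The 10 genes and all lists were chosen with earlier results of these data known. Named genes are the 10, in each list up to 3 genes with the smallest p past the FDR in either stage and the most abundant gene, all counted genes within 100 kb of G0S2 and any past the FDR within 500 kb, the 6 genes most like G0S2, and BCL2. PLIN1, PPARG, FABP4, GATA1, PDK4, COL1A2 and ITGAM were named after their values were seen. Drug response, flow cytometry and DNA assays were not analysed here. An erythroid marker was left out of its list and is not reported here.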

Additional observations from a re-analysis of the deposited data

How the results depend on the processing

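The number of genes past an FDR of 0.005 was 1881 in the early stage, 834 in the late stage and 0 between stages. It moved to 3548, 2503 and 1135 with DESeq2 and to 4865, 3542 and 1328 at an FDR of 0.05, and with no filter to 1287 in the late stage and 295 between stages. With the libraries of the 2 groups only it was 257 in the late stage, and with all 5 DasR lines as 1 group 845. Leaving out 1 library at a time gave 208 (without drug naive) to 2066 (without 200 nM) in the early stage, 33 (without drug naive) to 596 in the late stage, and 0 to 198 (without 50 nM) between stages. Of 67 listed genes, 8 passed in the late stage, and 5 of 89 at 1 CPM. The calls among neighbors of G0S2 rose from 1 to 2 at 1 CPM, through LAMB3. The control mean of the G0S2 to PNPLA2 ratio per length, 3.88, became 2.76 with the longest transcript and 2.24 with the deposited length, the last chosen after seeing the data, as were the alternatives for LAMB3 and UTP25. Without 1 library, HILPDA ranged from -0.88 to 0.42 in the early stage, -0.72 to 0.58 in the late stage and -0.032 to 0.33 between stages on the log2 scale. In the late stage PNPLA2 ranged from -0.17 to 0.011, ABHD5 from -0.96 to 0.075 and DGAT1 from -0.013 to 0.29. With all DasR lines as 1 group, ABHD5 had 0.46, PLIN3 -0.22 and DGAT1 -0.18, where the late stage values were -0.35, 0.14 and 0.14, which follows from adding the early stage lines. G0S2 against the controls stayed between -7.14 and -6.62 in the early stage and between -6.74 (without 200 nM) and -4.65 (without 50 nM) in the late stage when 1 library was left out. PLIN2 kept its direction in every alternative and ABHD5 in the early stage ranged from 0.56 to 1.14 without 1 library. With DESeq2, PLIN2 in the late stage, PLIN3 in the early stage, and PLIN3 and ABHD5 between stages passed 0.005. The causes of these shifts were not tested. No paired analysis was possible because each line had 1 library. The depth of 7 to 54 G0S2 counts per DasR library limits comparisons among those lines, and with 2 or 3 lines per group, each at its own dose, no error can be given for a line.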
